A study of Mus musculus with 686 samples.

Results

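The brains of 2 kinds of ground control, kept either in flight habitats (HGC) or in vivarium cages (VGC), were compared to describe how small RNA differed with housing alone, without flight. Every brain library labelled HGC or VGC was taken and no flight library was used, which gave 17 of the 686 libraries of the series. Of these, 4 HGC and 4 VGC libraries came from the live animal return part (LAR), and 5 HGC and 4 VGC libraries from the immediate termination part (TERM), which served as a check in other mice. The series as a whole profiled 7 classes of non-coding RNA in 13 tissues of mice flown to the International Space Station and of their ground controls.

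All mice were female BALB/cAnNTac and were fed NASA food bars, so diet did not differ by design between the arms. VGC mice lived 4 to a cage in a standard vivarium at 20 to 22.2 °C under a regular light and dark cycle. HGC mice lived in the flight hardware (transporters and habitats) at a higher cage density, with temperature, humidity and CO2 following the values recorded on the spacecraft. HGC housing therefore differs from VGC in hardware, density, climate and CO2 at the same time, and these parts cannot be told apart. Mold on the food bars reached HGC mice to a degree that the study does not give. The 8 LAR mice were 3 months old, and as controls of mice that spent 39.5 days in orbit they went through functional tests before their organs were dissected fresh and frozen. TERM mice were killed 22 to 24 days after launch, their bodies were frozen whole and the organs were taken out after thawing. In TERM, HGC mice 7, 8 and 9 and VGC mice 7, 8 and 9 were 3 months old, while HGC mice 17 and 18 and VGC mouse 18 were 8 months old. RNA came from a brain hemisphere homogenized whole, so no brain region is resolved.

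MicroRNAs (miRNAs) are short RNAs that guide a silencing complex to messenger RNAs, mostly through their seed, bases 2 to 8 of the mature strand. The brain has a miRNA content of its own. Neurons are rich in miR-124 and miR-9, oligodendrocytes, the cells that make myelin, in miR-219a and miR-338, and the choroid plexus, which makes the cerebrospinal fluid, in miR-204 and miR-211. Other small RNAs in such libraries are pieces of tRNA and rRNA, small nuclear RNAs (snRNAs) of the splicing machinery, and small nucleolar RNAs (snoRNAs), which guide the modification of other RNAs.

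The mature sequences of the miRNAs on which the comparison turns are given from RefSeq (GRCm38.p6), with the seed in capitals. The first set held the miRNAs at the top of the ranking towards HGC in LAR whose arms did not overlap.
miR-381-3p: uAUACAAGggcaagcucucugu
miR-300-3p: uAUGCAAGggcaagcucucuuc
miR-551b-3p: gCGACCCAuacuugguuucag
miR-324-5p: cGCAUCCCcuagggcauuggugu
miR-338-3p: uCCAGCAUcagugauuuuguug
miR-99b-5p: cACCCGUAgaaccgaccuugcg
The next set is of the let-7 family, whose 9 measured 5p strands all leaned towards VGC in LAR and share the seed GAGGUAG.
let-7a-5p: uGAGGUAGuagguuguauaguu
let-7c-5p: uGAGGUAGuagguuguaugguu
let-7g-5p: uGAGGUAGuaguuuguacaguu
miR-98-5p: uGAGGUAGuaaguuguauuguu
The last set was higher in HGC than in VGC within TERM. It holds members of the miR-200 family, with its seeds AAUACUG and AACACUG, and 2 miRNAs of the Hox gene clusters that share the seed ACCCUGU.
miR-200b-3p: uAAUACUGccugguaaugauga
miR-429-3p: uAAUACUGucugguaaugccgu
miR-200a-3p: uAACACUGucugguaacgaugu
miR-10a-5p: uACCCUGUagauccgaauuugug
miR-10b-5p: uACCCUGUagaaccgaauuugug

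Summed over the 7 classes, a library held between 26.0 M and 84.1 M counts in LAR and between 9.15 M and 145 M in TERM, with 3.41 M to 10.0 M and 0.598 M to 9.38 M of them on miRNAs. Levels are given as rpmm, the counts of a feature scaled to a library total of 1 M counts over the 7 classes. Among libraries of the same arm and part, none was a copy of another, and pairs across these groups were not checked in this way. The label was checked with the neuronal marker miR-124-3p, which took between 4847 rpmm (VGC mouse 5 of LAR) and 33829.7 rpmm (HGC mouse 1 of LAR) and was the miRNA with the highest mean in LAR.

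Some libraries stood apart and bear on most results. Across 255 miRNAs, the median Pearson's r of a library with the other 16 was 0.726 for VGC mouse 5 of LAR and 0.807 for HGC mouse 1 of LAR, against 0.844 to 0.943 for the remaining 15. VGC mouse 5 was most like HGC mouse 18 of TERM (r = 0.902). Its 12 neuronal miRNAs summed to 8607 rpmm, against 18346 to 45504 rpmm in the other 7 LAR libraries, while its 7 striated muscle miRNAs summed to 4892 rpmm, against 251 to 558 rpmm. HGC mouse 1 and VGC mouse 5 also shared high leukocyte miR-142a-3p, at 189 and 57.3 rpmm, against 1.54 to 4.45 rpmm in the other 6 LAR libraries. The 4 leukocyte miRNAs together summed to 893 and 527 rpmm in these mice, against 251 to 454 rpmm in the other 6. On that sum VGC mouse 5 lay close to HGC mouse 5. In TERM, liver miR-122-5p reached 1675 rpmm in HGC mouse 18 and 878 rpmm in VGC mouse 7, against 1.56 to 31.0 rpmm elsewhere, and VGC mouse 8 was the shallowest library. LAR results are therefore also given without VGC mouse 5.

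**Figure D1:**
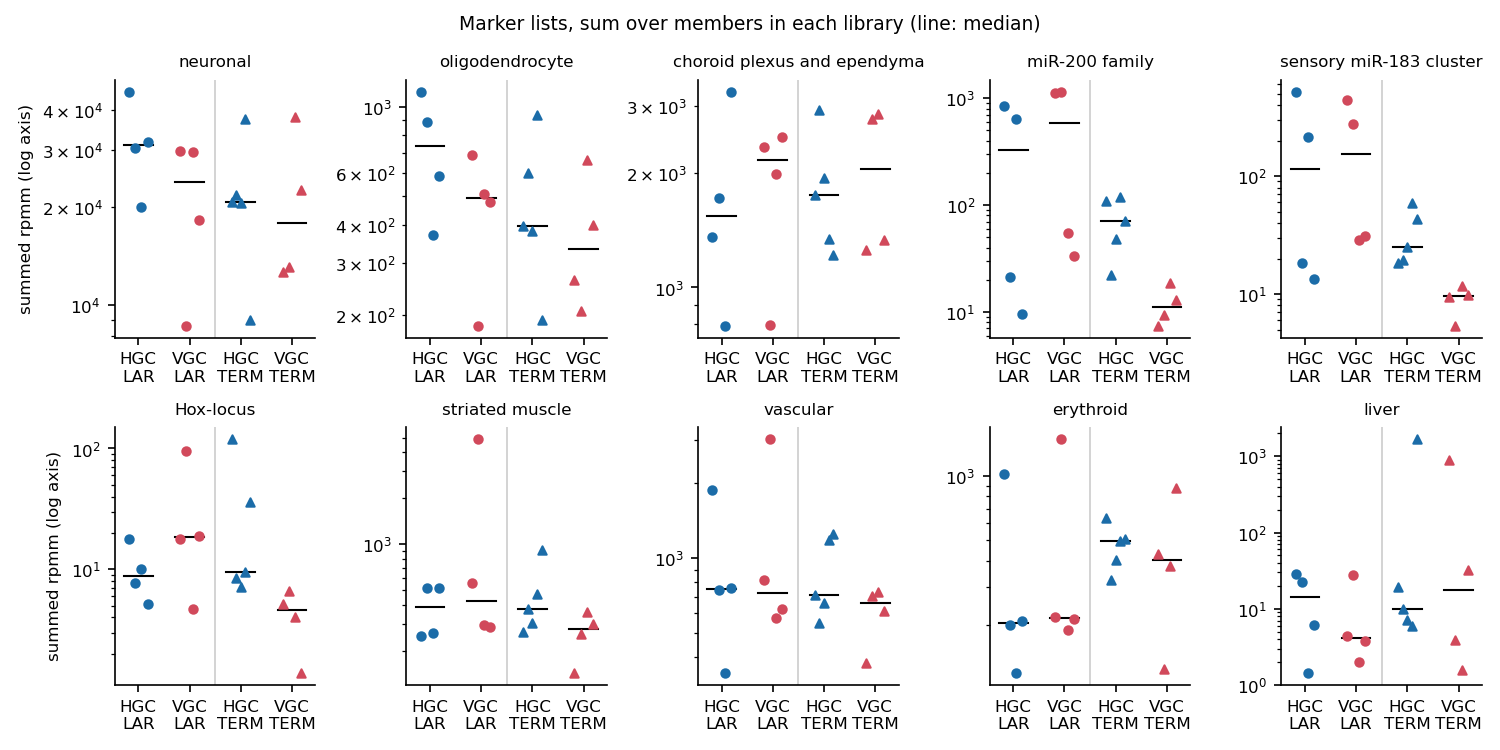
Summed levels (rpmm, log axis) of 10 lists of marker miRNAs in each HGC (blue) and VGC (red) library of LAR (circles) and TERM (triangles), with a line at each median. VGC mouse 5 of LAR lies apart in the striated muscle list at 4892 rpmm and is the lowest LAR library in the neuronal list at 8607 rpmm.

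The miRNAs were compared first. In LAR, 0 of 1000 tested miRNAs (0%) differed between HGC and VGC at a Benjamini-Hochberg adjusted p under 0.05 in edgeR's quasi-likelihood test, and DESeq2 gave 0 as well. At an unadjusted p under 0.05 there were 66 (6.6%), of which 24 were higher in HGC (2.4% of those tested) and 42 lower (4.2%). Without VGC mouse 5 edgeR still called 0 of 953, but the 67 miRNAs under an unadjusted p of 0.05 were then 48 higher and 19 lower. With this mouse and HGC mouse 1 left out together, 0 of 941 were called and 37 had an unadjusted p under 0.05. Nothing in the labels gives the litter, cage or run of a mouse, and p-values measure only the spread between these libraries. The mice of an arm were housed in groups, so those that shared a cage or habitat may not be independent. An effect of the cage cannot be told apart from that of housing. In bulk tissue, fewer cells of a type and less RNA per cell cannot be told apart.

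The miRNAs with the smallest p are described as a ranking and not as calls. At the top towards HGC stood miR-381-3p and miR-300-3p, of the imprinted Dlk1-Dio3 cluster, which is transcribed from the maternal chromosome and is prominent in neurons. The level of miR-381-3p was 169.5, 58.4, 43.9 and 38.3 rpmm in HGC and 20.2, 7.45, 31.3 and 14.2 rpmm in VGC. That of miR-300-3p was 265, 128, 107 and 88.9 rpmm in HGC and 51.3, 24.9, 77.5 and 33.0 rpmm in VGC. In both, every HGC library lay above every VGC library, HGC mouse 1 was the highest and VGC mouse 5 the lowest. The log2 fold change of HGC over VGC was 1.70 (SE 0.49) for miR-381-3p and 1.34 (SE 0.41) for miR-300-3p, where 1 is a 2-fold difference, and the edgeR adjusted p was 0.635 for both.

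In the same ranking of LAR, miR-338-3p, which is enriched in oligodendrocytes and promotes their maturation, measured 654, 306, 222 and 182 rpmm in HGC and 117, 86.7, 178 and 72.5 rpmm in VGC, a log2 fold change of 1.22 (SE 0.40). miR-551b-3p measured 208, 48.7, 33.8 and 38.9 rpmm in HGC and 23.0, 8.44, 27.3 and 11.5 rpmm in VGC, a log2 fold change of 1.78 (SE 0.52). miR-99b-5p, which is processed from a transcript that also holds let-7e, measured 409, 175, 130.3 and 136 rpmm in HGC and 51.5, 28.7, 100.2 and 65.6 rpmm in VGC, a log2 fold change of 1.38 (SE 0.45). For these 3 miRNAs too the arms did not overlap, and HGC mouse 1 was the highest in each. VGC mouse 5 was the lowest for miR-551b-3p and miR-99b-5p, and VGC mouse 17 for miR-338-3p. The level of miR-324-5p was 55.9, 29.5, 59.3 and 21.9 rpmm in HGC and 10.8, 7.08, 21.8 and 7.11 rpmm in VGC, where HGC mouse 13 was the highest and HGC mouse 17 lay barely above VGC mouse 13. Its log2 fold change was 1.73 (SE 0.55), and its partner from the other arm of the hairpin, miR-324-3p, gave 1.31 (SE 0.49) with arms that overlapped. The ranking went on with miR-484 (1.18), miR-345-5p (1.18) and miR-434-5p (1.35), with overlapping arms. The adjusted p of edgeR was 0.635 for all 10.

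Leaving out VGC mouse 5 kept all 10 positive, between 1.02 for miR-484 and 1.61 for miR-324-5p, and leaving out HGC mouse 1 as well kept them between 0.59 (miR-434-5p) and 1.70 (miR-324-5p). Libraries of both arms of LAR shared a plate only on plate 2, with HGC mouse 13 against VGC mice 1 and 17. There the log2 difference was 1.32 for miR-381-3p, 1.35 for miR-300-3p, 1.26 for miR-338-3p and 2.62 for miR-324-5p, with no test. Over all tested miRNAs of LAR, the arms did not overlap in 31 that were higher in HGC (3.1%) and 3 that were lower (0.3%). The 3 lower ones, miR-6942-5p, miR-6959-5p and miR-7038-5p, were named after their values were seen and averaged under 0.08 rpmm. Overlap was judged on rpmm, and with the total of the 7 classes as scale the median log2 fold change of all miRNAs was 0.19. With edgeR's own scaling (TMM) that median was -0.13, and at an unadjusted p under 0.05 the lean was the opposite, 24 higher and 42 lower.

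**Figure D2:**
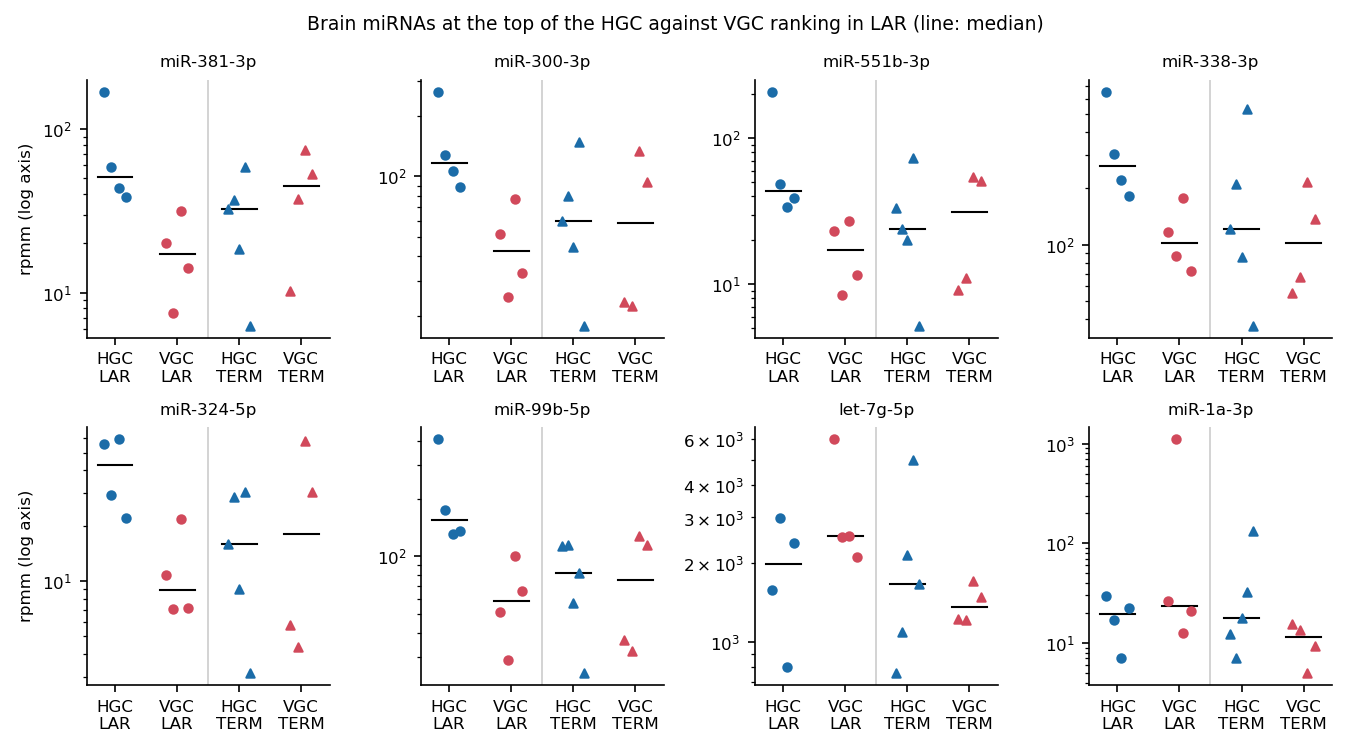
Level (rpmm, log axis) of 8 miRNAs from the top of the LAR ranking in each HGC (blue) and VGC (red) library of LAR (circles) and TERM (triangles), with a line at each median. In the first 6 panels all LAR libraries of HGC lie above those of VGC while the TERM arms overlap, and in the last panel miR-1a-3p of VGC mouse 5 stands at 1111 rpmm, against at most 29.4 rpmm in the other LAR libraries.

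The ranking towards VGC was led by miRNAs best known from other tissues, and 6 of its 10 members came to between -0.47 and 0.14 without VGC mouse 5. The level of miR-1a-3p, the main miRNA of heart and skeletal muscle, was 29.4, 16.8, 7.01 and 22.5 rpmm in HGC and 26.3, 1111, 12.5 and 21.0 rpmm in VGC. miR-133a-3p, made from the same muscle transcripts, was at 179, 163, 122 and 241 rpmm in HGC and 201, 2799.8, 82.6 and 126 rpmm in VGC, and miR-375-3p, known from endocrine cells such as those of the pituitary and pancreatic islets, at 22.8, 31.1, 8.81 and 15.7 rpmm in HGC and 33.6, 420.0, 23.8 and 5.65 rpmm in VGC. In each of these the second of the 4 VGC values, that of mouse 5, was the highest by far and the remaining 7 libraries overlapped. The log2 fold changes were -4.65, -2.72 and -3.26 with all 8 libraries (edgeR, adjusted p = 0.635 for each) and -0.47, 0.14 and -0.26 without VGC mouse 5. The fibroblast and vascular miRNAs miR-199a-3p (-2.81) and miR-143-3p (-1.81) likewise came to -0.16 and -0.36 without it. miR-199a-3p and miR-199b-3p have the same mature sequence and cannot be told apart by reads.

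The other 4 members kept -0.63 or less without that mouse. let-7g-5p was at 1585, 2976, 797 and 2388 rpmm in HGC and 6006, 2535, 2554 and 2112 rpmm in VGC, with VGC mouse 1 the highest and HGC mouse 13 the lowest. Its log2 fold change was -1.06 (SE 0.42), and -1.08 without VGC mouse 5. miR-191-5p gave -0.88 with all libraries and -0.90 without that mouse, while miR-30e-3p went from -1.11 to -0.65 and miR-26b-5p from -1.26 to -0.63. The arms overlapped in all 10.

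The 10 most abundant miRNAs of LAR showed no call. They were miR-124-3p, miR-9-5p, let-7a-5p, let-7b-5p, let-7c-5p and let-7d-5p, miR-26a-5p, miR-181a-5p, miR-127-3p and miR-29a-3p. miR-124-3p, which represses non-neuronal genes in neurons, was at 33829.7, 19869.6, 15291 and 21454 rpmm in HGC and 16365, 4847, 19790.3 and 11534 rpmm in VGC, a log2 fold change of 0.50 (SE 0.36), and 0.26 without VGC mouse 5. miR-9-5p, a regulator of neural progenitors, was at 4615, 6175, 2620.4 and 5074 rpmm in HGC and 8918, 2615, 5253 and 3612 rpmm in VGC, a log2 fold change of -0.39 (SE 0.36). For both, the arms overlapped. Among the others, let-7c-5p gave -0.72 (SE 0.49), miR-26a-5p -0.77 (SE 0.35), miR-181a-5p -0.30 (SE 0.40) and miR-29a-3p 0.26 (SE 0.30).

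By size alone, taking miRNAs whose ratio of medians was beyond 2-fold (on rpmm + 1) with a Cohen's d beyond 0.5, a rule that uses no p-value, 22 of the 1000 (2.2%) passed in LAR and all were higher in HGC. They included the 10 that led the ranking, the neuronal miR-128-3p and miR-137-3p, and miR-434-3p and miR-543-3p of the Dlk1-Dio3 cluster. The arms did not overlap in 8 of them, beside 3.1% of all tested miRNAs in that direction. In edgeR 12 had an unadjusted p under 0.05, beside 2.4% of all tested miRNAs that were higher at that p. Both counts come from the same libraries to which the rule was applied. In TERM 7 of 989 (0.708%) passed, and none of them was among the 22. The count depended on the scale, as 63 passed in LAR with the miRNA counts alone as the total, 10 of them lower in HGC. Leaving out 1 library at a time passed 23 to 60, of which 1 (without VGC mouse 1) to 14 (without HGC mouse 17) were lower in HGC.

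Lists of miRNAs by cell type or locus were then described by their counts and by the median log2 fold change of their tested members, beside the median of all tested miRNAs, which was -0.13 in LAR, 0.06 without VGC mouse 5 and 0.083 in TERM. Scaling by the total of the 7 classes in place of TMM moved the LAR median of all miRNAs to 0.19, so list medians are to be read against these shifts. In every list edgeR called 0 members in LAR and in TERM. Of the 12 neuronal miRNAs, 8 had a positive sign in LAR and 0 an unadjusted p under 0.05, with a median of 0.23, which was -0.028 without VGC mouse 5 and -0.0076 in TERM (0.15 with the total of the 7 classes). miR-128-3p (0.94) and miR-137-3p (0.94), both linked to synapses and excitability, were the most positive. The activity-dependent pair miR-132 and miR-212, induced by the transcription factor CREB, held 3 tested strands with a median of 0.48 in LAR, -0.19 without HGC mouse 17, and -0.38 in TERM, and the level of miR-132-3p spread widely, at 41.7, 30.5, 86.6 and 972 rpmm in HGC and 106, 58.4, 149 and 5.09 rpmm in VGC.

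The oligodendrocyte list had a median of 0.48 over 4 members, with 1 (miR-338-3p, described above for its rank on that p) at an unadjusted p under 0.05, beside 2.4% higher at that p among all tested miRNAs, and 0.21 without VGC mouse 5. Its most abundant other member, miR-219a-2-3p, was at 391, 488, 91.8 and 331 rpmm in HGC and 439, 82.9, 283 and 339 rpmm in VGC, and its log2 fold change was -0.22 (SE 0.51). Its sign was thus opposite to that of miR-338-3p, and the difference between them was not tested. The 9 choroid plexus and ependyma strands gave a median of -0.19 (0.094 with the total of the 7 classes), with miR-204-5p, the most abundant, at 1245, 1610.4, 655 and 3124 rpmm in HGC and 2191, 700.0, 1875 and 2385 rpmm in VGC. In the 27 members of the Dlk1-Dio3 cluster, 16 were positive in LAR, 2 had an unadjusted p under 0.05 (6.6% of all tested miRNAs) and 3 had arms that did not overlap with HGC higher (3.1% of all), with a median of 0.37. Without VGC mouse 5 that median was 0.065, and in TERM it was -0.17 with 8 of 27 positive, though 0.032 with the total of the 7 classes as scale. The cluster's most abundant member, miR-127-3p, gave 0.40 in LAR and -0.87 in TERM.

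let-7 miRNAs rise as neurons mature and are abundant in the adult brain. All 9 measured 5p strands had a negative sign in LAR, between -1.10 (let-7f-5p) and -0.65 (let-7b-5p), with a median of -0.73 (-0.81 by DESeq2 and -0.45 with the total of the 7 classes), and 3 (let-7d-5p, let-7f-5p and let-7g-5p) had an unadjusted p under 0.05, beside 4.2% lower at that p among all tested miRNAs. The family sums were 15039, 40321, 8174 and 36979 rpmm in HGC and 64036, 26559, 29552 and 27027 rpmm in VGC. HGC mice 1 and 13 were the lowest, VGC mouse 1 was the highest, and HGC mice 5 and 17 lay above 3 of the 4 VGC mice, so the arms overlapped. Leaving out 1 library at a time moved the median between -1.08 (without HGC mouse 5) and -0.45 (without HGC mouse 13). It was -0.87 without VGC mouse 5 and -0.60 without HGC mouse 1 and VGC mouse 5. On plate 2 alone, let-7a-5p differed by -2.64 and let-7g-5p by -2.16 on the log2 scale. In TERM the median was 0.20, with 8 of 9 positive, and -0.03 without HGC mouse 9. Members of this family differ by few bases, and reads of close members can be hard to assign. The list holds no 3p strand. Of those, let-7d-3p (0.75) and let-7i-3p (0.93) were among the 22 miRNAs of LAR that passed by size, with HGC higher and neither called.

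Other lists turned on the libraries that stood apart. The 7 striated muscle miRNAs had a median of -2.72 in LAR, with 4 at an unadjusted p under 0.05 (4.2% of all tested miRNAs were lower at that p), and -0.18 without VGC mouse 5. In the Hox-locus list, whose miRNAs mark the trunk, the hindbrain and the spinal cord, the median was -1.94 with 3 at an unadjusted p under 0.05, and -1.01 without VGC mouse 5. The vascular list went from -0.60 to 0.21, the erythroid list from -1.12 to 0.40, the leukocyte list from -0.58 to 1.28, and the kidney and gut list from -1.28 to 0.11 without that mouse. Without HGC mouse 1 the leukocyte median was instead -3.13, and without both mice -0.06. With all 8 libraries but the total of the 7 classes as scale, the vascular list stood at 0.12, the leukocyte list at 0.11 and the liver list at 0.69, each with the opposite sign. The MIR-17 family, which drives proliferation, gave -1.08 with 0 of 8 positive, 0.93 without VGC mouse 5 and 0.0077 without HGC mouse 1 as well. The 2 strands of liver miR-122 gave -0.11 and 2.11, and the neuroendocrine list, with miR-375-3p and miR-7, 0.18 and -0.057 (-0.08 without HGC mouse 1). Whether RNA of other tissues took part in these differences was not tested.

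The stress, hypoxia and inflammation list had a median of 0.28 over 8 members in LAR, 0.39 without VGC mouse 5, -0.012 without HGC mouse 1 and 0.28 in TERM. Hypoxia-induced miR-210-3p was at 8.55, 5.31, 4.02 and 3.81 rpmm in HGC and 3.90, 4.67, 4.52 and 2.06 rpmm in VGC, a log2 fold change of 0.16 (SE 0.41). miR-135b-5p, whose relative miR-135a has been tied to anxiety-like behavior in mice, was at 112, 20.4, 15.4 and 15.9 rpmm in HGC and 13.3, 4.30, 12.0 and 11.2 rpmm in VGC. Every HGC library lay above every VGC library for it, with HGC mouse 1 far above the rest, and the log2 fold change was 1.46 in LAR (SE 0.59, edgeR adjusted p = 0.635) and -0.03 in TERM. The inflammatory miR-155-5p gave -2.22 in LAR and 0.90 without VGC mouse 5.

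**Figure D3:**
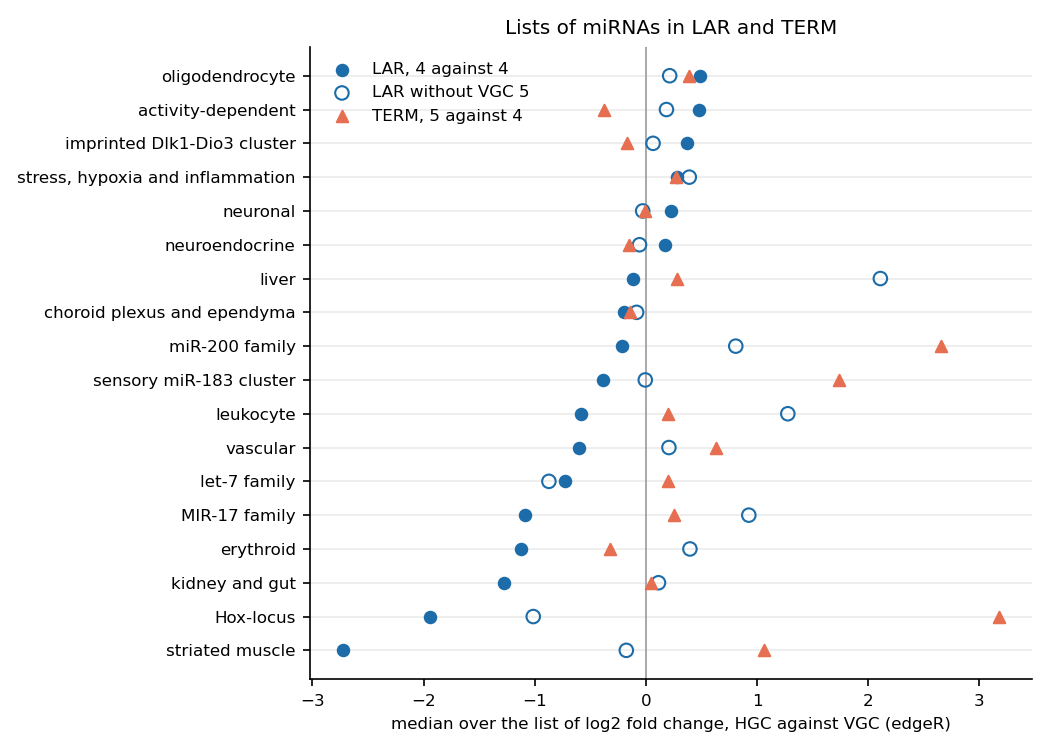
Median log2 fold change of HGC over VGC (edgeR) for 18 lists of miRNAs in LAR (filled circles), in LAR without VGC mouse 5 (open circles) and in TERM (triangles). The Hox-locus list lies at -1.94 in LAR and 3.18 in TERM, and the miR-200 family at -0.22 and 2.65.

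TERM, with other mice and another way of collection, gave 0 of 989 miRNAs (0%) at an adjusted p under 0.05 in edgeR. There were 62 at an unadjusted p under 0.05, 40 of them higher in HGC (4.04%) and 22 lower (2.22%), and DESeq2 called 10. Of the 10 miRNAs that led the LAR ranking towards HGC, 4 were positive and 6 negative in TERM, with a median of -0.06, and of the 10 that led it towards VGC 8 were positive, with a median of 1.01. miR-381-3p, for example, was at 32.6, 36.8, 18.5, 58.5 and 6.24 rpmm in HGC and 10.2, 37.5, 74.9 and 52.8 rpmm in VGC, and the arms overlapped throughout. With age as a covariate 0 were called and 41 had an unadjusted p under 0.05, and with the mice of 3 months alone, 3 against 3, the counts were 0 and 34.

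The smallest p in TERM belonged to epithelial miRNAs of the miR-200 family, which stood higher in HGC together with those of a sensory cluster, all at low levels. miR-429-3p, a member of the miR-200 family, which keeps epithelial cells in their state, was at 37.2, 7.72, 26.4, 59.0 and 18.7 rpmm in HGC and 2.86, 1.42, 6.89 and 5.91 rpmm in VGC, a log2 fold change of 2.71 (SE 0.51, edgeR adjusted p = 0.0546). miR-200b-3p was at 35.3, 3.99, 10.0, 28.3 and 13.9 rpmm in HGC and 2.17, 1.86, 2.66 and 3.01 rpmm in VGC, a log2 fold change of 2.73 (SE 0.58, adjusted p = 0.0883 in edgeR). All 5 members of the family had arms that did not overlap and an unadjusted p under 0.05, beside 15 miRNAs (1.52%) higher without overlap among all tested, with a median of 2.65. The miR-183 cluster of sensory cells, with miR-183-5p, miR-96-5p and miR-182-5p, gave a median of 1.73 and no overlap in its 3 members. Both medians stayed positive with DESeq2 and with the total of the 7 classes as scale.

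In LAR the arms overlapped for all 8 of these miRNAs. There miR-200b-3p was at 242, 4.15, 189 and 2.52 rpmm in HGC and 177, 230.2, 15.3 and 9.09 rpmm in VGC, with HGC mice 1 and 13 and VGC mice 1 and 5 high and the other 4 low, so that high and low libraries occurred in both arms. The family median was -0.22 in LAR, 0.81 without VGC mouse 5, 0.19 without HGC mouse 5, 0.28 without HGC mouse 17, -0.89 without HGC mouse 1, -1.03 without HGC mouse 13 and 0.019 with the total of the 7 classes as scale.

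The 5 Hox-locus miRNAs had the largest list median in TERM at 3.18, all with an unadjusted p under 0.05, beside 4.04% of all tested miRNAs higher at that p. miR-10a-5p was at 61.9, 4.10, 3.00, 3.89 and 19.2 rpmm in HGC and 3.23, 1.42, 1.92 and 0.601 rpmm in VGC, with HGC mice 7 and 18 far above the rest, and its log2 fold change was 3.18 (SE 0.94). miR-615-3p alone had arms that did not overlap, at 3.28, 0.923, 0.305, 0.611 and 0.337 rpmm in HGC and 0.145, 0.109, 0.230 and 0.0784 rpmm in VGC. Leaving out 1 library at a time moved the list's median between 1.85 (without HGC mouse 7) and 4.29. The muscle list gave 1.07 in TERM with 3 members at an unadjusted p under 0.05, beside that same 4.04%, and 0.47 without HGC mouse 18, and miR-1a-3p was highest in HGC mouse 18 at 133 rpmm. The part of RNA from other tissues in these values was not tested.

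DESeq2 called 10 miRNAs in TERM, all higher in HGC. They were miR-429-3p, miR-200b-3p, miR-200a-3p, miR-200a-5p, miR-615-3p, miR-200c-3p, miR-10b-3p, miR-182-5p, miR-141-3p and miR-183-5p, which are members of these 3 groups and their partner strands. Without HGC mouse 8 edgeR called 2 (miR-429-3p and miR-200b-3p), and without HGC mouse 18 it called 1 (miR-429-3p).

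Whether housing went with a different change in LAR than in TERM was tested with the interaction of housing and part. edgeR called 0 of 1069 miRNAs (0%), with 97 at an unadjusted p under 0.05 (9.07%), of which 75 had the lower value in LAR. Without VGC mouse 5 of LAR there were 58, of which 31 were lower and 27 higher in LAR. With all libraries DESeq2 had 43 lower and 33 higher at that p. DESeq2 called 2, miR-10b-3p and miR-615-3p. The 5 of smallest p were miR-196b-5p, miR-10b-3p, miR-615-3p, miR-10a-3p and miR-133a-5p, 4 of them of the Hox clusters and 1 of muscle, and all had a negative log2 fold change in LAR and a positive one in TERM (edgeR, adjusted p = 0.204 for each). For miR-196b-5p, for instance, it was -5.94 in LAR, -2.55 in LAR without VGC mouse 5 and 3.18 in TERM.

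Most edgeR calls in LAR were of small nuclear RNAs, and the only other one was an rRNA feature. U1, U2, U4, U5 and U6 build the spliceosome, U11 and U12 serve a minor form of it, and U7 helps to form the ends of histone messenger RNAs. The mouse genome also holds many partial copies of these genes, of U6 above all. In LAR edgeR called 28 of 738 snRNA features (3.79%), 3 higher in HGC (0.407%) and 25 lower (3.39%), and 161 (21.8%) had an unadjusted p under 0.05. DESeq2 called 35, of which 27 were among the 28. In TERM edgeR called 0 of 753 (0%), with 50 (6.64%) at an unadjusted p under 0.05, and DESeq2 called 0.

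The sequences of 2 of the 3 features called higher, Gm23502 and Rnu7, are given 5′ to 3′ from GENCODE M21 on GRCm38, with Rnu12, the U12 RNA that Gm23502 resembles, beside them. Rnu12 lies at chr15:83149644-83149794 (plus strand), Gm23502 at chr14:21812711-21812855 (plus strand) and Gm24624 at chrX:116345732-116345895 (plus strand), all outside other genes, while Rnu7 at chr6:124741225-124741286 (minus strand) lies in an exon of Grcc10 on the same strand.
Rnu12: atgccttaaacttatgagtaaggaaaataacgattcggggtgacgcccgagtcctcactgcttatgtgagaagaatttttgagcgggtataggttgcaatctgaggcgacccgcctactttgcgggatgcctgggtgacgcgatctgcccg
Gm23502: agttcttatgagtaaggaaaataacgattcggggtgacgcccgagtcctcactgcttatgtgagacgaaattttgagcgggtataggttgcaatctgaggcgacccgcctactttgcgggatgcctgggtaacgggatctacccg
Rnu7: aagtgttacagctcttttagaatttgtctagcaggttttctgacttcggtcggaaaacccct

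The 25 features called lower were all U6-like, 79% to 92.5% identical in the aligned part to Rnu6, the U6 RNA (median 86.8%). The share of U6-like features among all 738 snRNA features tested is not given here, so this count cannot be set against it. Together they took 29.2, 39.1, 19.2 and 16.7 rpmm in HGC and 198, 37.3, 115 and 39.9 rpmm in VGC, so VGC mice 1 and 13 stood far above the other 6 libraries, and VGC mouse 5 lay below HGC mouse 5. Gm22127, which lies at chr11:36722882-36722987 (plus strand) in an intron of Tenm2 on the other strand, was at 0.616, 1.27, 0.530 and 0.678 rpmm in HGC and 7.98, 1.91, 4.25 and 1.32 rpmm in VGC, a log2 fold change of -1.70 (SE 0.43, edgeR adjusted p = 0.0215). The log2 fold changes of the 25 lay between -1.12 and -2.27, and the arms did not overlap in 12 of them, beside 17 (2.3%) in that direction among all snRNAs tested. They are not 25 independent values, since their levels ran together across the 8 libraries with a median Pearson's r of 0.974 over pairs, and they were rare, with means of 0.18 to 8.2 rpmm. In TERM 18 of the 25 were negative, with a median of -0.31 beside -0.10 for all snRNAs, and 0 were called, with 3 at an unadjusted p under 0.05.

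Rnu6 itself was at 518, 329, 225 and 181 rpmm in HGC and 397, 237, 316 and 342 rpmm in VGC, a log2 fold change of 0.18 (SE 0.30, edgeR adjusted p = 0.735), with HGC mouse 1 highest. The arms overlapped for the U6 RNA itself, and its difference from the copies was not tested.

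Of the features called higher, Gm23502 (96.5% identical to Rnu12) was at 127, 58.5, 64.3 and 31.0 rpmm in HGC and 38.4, 22.0, 43.8 and 36.3 rpmm in VGC, a log2 fold change of 1.24 (SE 0.25, edgeR adjusted p = 0.0026). HGC mouse 1 was the highest and HGC mouse 17 lay within the VGC range. Rnu12 showed 178, 92.3, 86.7 and 55.5 rpmm in HGC and 73.8, 69.8, 78.5 and 59.0 rpmm in VGC, and its log2 fold change of 0.80 (SE 0.26) had an edgeR adjusted p of 0.0549. Rnu7 was at 72.6, 22.0, 6.27 and 6.40 rpmm in HGC and 10.2, 11.8, 9.71 and 7.28 rpmm in VGC, a log2 fold change of 1.35 (edgeR adjusted p = 0.00997), with HGC mice 1 and 5 above all VGC mice and HGC mice 13 and 17 below them. Without HGC mouse 1 it was 0.66 and no longer called (edgeR, adjusted p = 0.385), and the call was also lost without any 1 of the 4 VGC mice. Gm24624, 87.1% identical to the U1 RNA Rnu1a1 in the aligned part, was at 1.04, 0.972, 0.879 and 0.714 rpmm in HGC and 0.296, 0.295, 0.406 and 0.157 rpmm in VGC without overlap, a log2 fold change of 2.07 (edgeR adjusted p = 0.00997). U1 itself, as Rnu1a1, gave 1.34 (adjusted p = 0.108 in edgeR), U5 as Rnu5g 1.05, U11 as Rnu11 0.72 and U2 as Rnu2-10 0.37, none of them called.

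The snRNA calls depended on single libraries and on the scaling. Without VGC mouse 5, VGC mouse 1 or VGC mouse 13 edgeR called 0, without HGC mouse 1 it called 2, without HGC mouse 13 it called 1, without HGC mouse 17 it called 3, and without VGC mouse 17 it called 1 that was not among the 28. Without HGC mouse 5 it called 41, and without HGC mouse 1 and VGC mouse 5 together 45, which held 28 and 27 of the first 28. Scaling by the total of the 7 classes in place of TMM moved the median of all snRNAs from -0.05 to -0.38 and gave 0 calls. All 3 kept their positive and all 25 their negative sign in these fits.

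**Figure D4:**
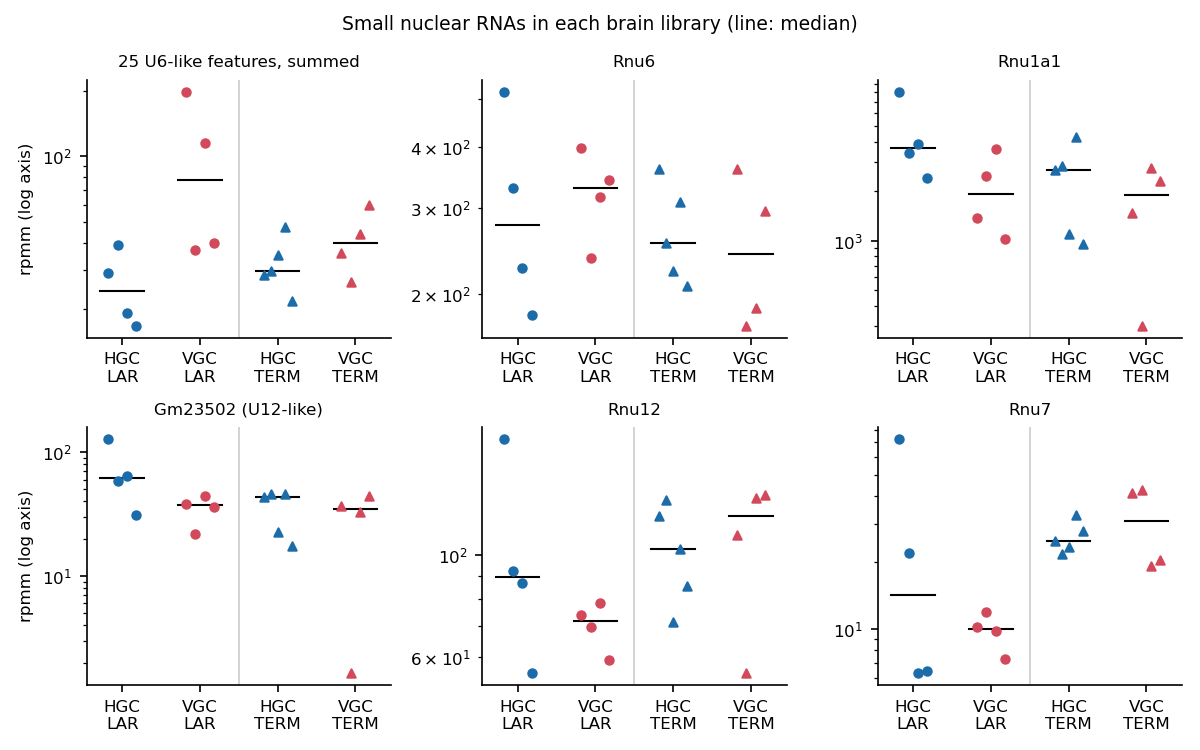
Level (rpmm, log axis) of the 25 U6-like snRNA features called lower in LAR, summed, and of Rnu6, Rnu1a1, Gm23502, Rnu12 and Rnu7 in each HGC (blue) and VGC (red) library of LAR (circles) and TERM (triangles), with a line at each median. The summed U6-like features reach 198 and 115 rpmm in 2 VGC libraries of LAR and at most 39.1 rpmm in HGC of LAR, while Rnu6 overlaps between the arms.

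The makeup of the libraries was compared by the share of counts in each class. In LAR miRNAs took 11.1% ± 3.20 (SD, n = 4) in HGC and 11.0% ± 3.35 (n = 4) in VGC. snoRNAs took 52.5% ± 14.6 and 45.5% ± 19.0, snRNAs 11.2% ± 5.71 and 8.06% ± 1.54, and lncRNAs 12.5% ± 3.42 and 13.4% ± 3.30. tRNA pieces took 6.11% ± 3.32 in HGC and 13.4% ± 18.2 in VGC, where VGC mouse 5 alone had 40.7% and the other 3 had 3.06% to 5.03%. Without that mouse the difference of HGC less VGC turned from -7.27 to 1.82 percentage points for tRNA and from 6.95 to -1.90 for snoRNA (exact permutation test, adjusted p = 0.943 for each). These shares depend on how copies are counted. With features of identical counts kept once, miRNAs took 22.0% in HGC and 21.9% in VGC, tRNA pieces 2.67% and 5.31%, snoRNAs 34.1% and 31.0% and lncRNAs 24.8% and 26.7%, again with no class passing (exact permutation test, adjusted p = 1 for each). With every copy counted, no class passed a two-sided exact permutation test (adjusted p = 0.971 for each of the 7, where the smallest unadjusted p that 4 against 4 allows is 0.0286). In TERM miRNAs took 8.68% ± 3.76 in HGC (n = 5) and 7.78% ± 2.84 in VGC (n = 4), and tRNA pieces 27.4% ± 10.8 and 32.0% ± 5.12, again with no class passing (exact permutation test, adjusted p = 0.714 for each).

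**Figure D5:**
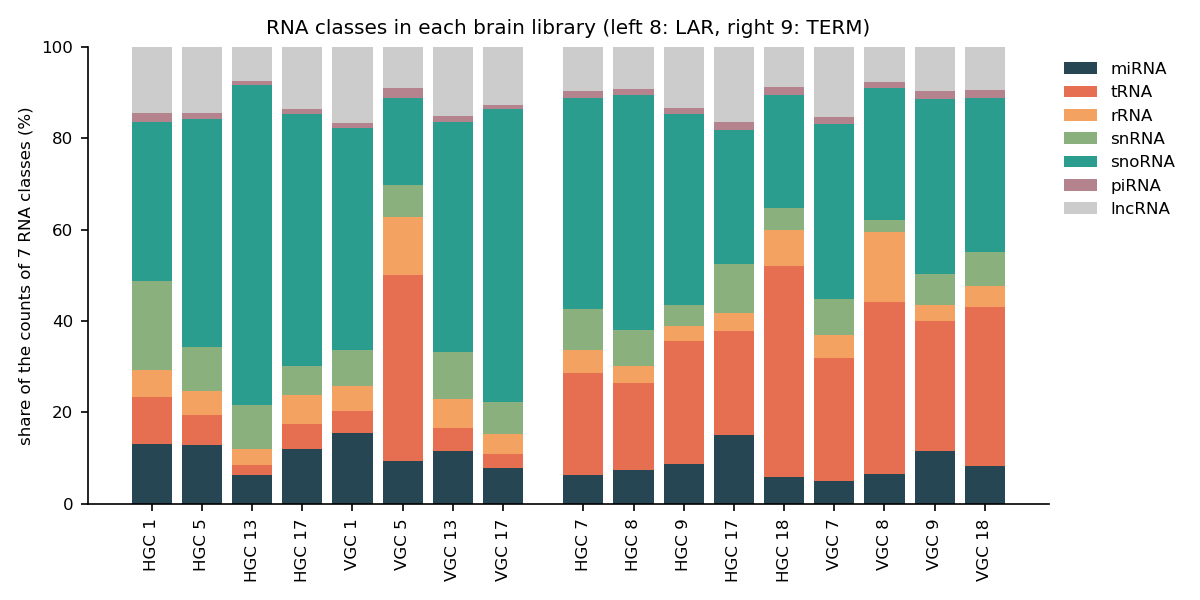
Stacked bars of the share of counts (percent) in each of the 7 classes, 1 bar for each HGC and VGC library, with the 8 LAR libraries at the left and the 9 TERM libraries at the right. In LAR, VGC mouse 5 stands apart with 40.7% of its counts on tRNA, against 3.06% to 5.03% in the other VGC libraries.

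Among tRNA features edgeR called 0 of 400 (0%) in LAR, with 6 (1.5%) at an unadjusted p under 0.05, and 0 of 403 in TERM with 6 (1.49%), and DESeq2 called 0 in both. Pieces of tRNA-Glu-CTC were the most abundant, with tRNA-Glu-CTC-1-1 at 2934, 2871, 691 and 2887 rpmm in HGC and 1730.2, 27223, 2565 and 1440.5 rpmm in VGC, where VGC mouse 5 held the high value. The smallest p belonged to tRNA-Gln-CTG-1-1 (1.11) and tRNA-Ile-AAT-3-1 (0.84) towards HGC and to tRNA-Gly-ACC-1-1 (-1.13) and tRNA-Ala-CGC-2-1 (-0.97) towards VGC (edgeR, adjusted p = 0.565 for each). Within LAR, VGC mouse 5 also had 22391 rpmm on all valine tRNAs, against at most 2023 rpmm in the other VGC libraries of LAR, and 10886 rpmm on glycine tRNAs, against at most 2313 rpmm. HGC mouse 1 was also high, at 5837.5 rpmm on valine and 8172 rpmm on glycine tRNAs. In TERM, VGC libraries held 4685 to 13351 rpmm on valine and 13352 to 21906 rpmm on glycine tRNAs. Without VGC mouse 5 edgeR called 15 tRNA features, with 3 arginine tRNA features (tRNA-Arg-TCT) higher and 12 of cysteine, valine and alanine lower in HGC. Without HGC mouse 1 as well it called 0, with 45 at an unadjusted p under 0.05. Copies of a tRNA gene share reads, and the 400 features held 218 distinct profiles.

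In the snoRNAs, 0 of 655 (0%) were called in LAR, with 25 (3.82%) at an unadjusted p under 0.05, and 0 of 660 in TERM with 31 (4.7%), while DESeq2 called 1 in LAR (Gm25379) and 0 in TERM. Many of the features lie in the imprinted Prader-Willi region, where the paternal transcript of neurons carries long arrays of snoRNA copies. The 190 snoRNA features between Snord116 and Ube3a, other than Snord116, took 24.0%, 38.4%, 61.8% and 46.3% of all counts in HGC and 40.5%, 8.74%, 39.1% and 53.6% in VGC, with a read counted at each identical copy. With each of their 81 distinct profiles counted once, over the same total of all counts, they held 50640.2, 80824, 122422 and 94761 rpmm in HGC and 82941, 17923, 80369 and 109602 rpmm in VGC. The highest share was in HGC mouse 13 and the lowest in VGC mouse 5, and the arms overlapped. Their median log2 fold change was 0.33 in LAR and -0.32 in TERM, where it was 0.12 with the total of the 7 classes as scale, and 0 were called. Without VGC mouse 5 the LAR median was 0.096. The 17 Snord116 features gave 0.38 in LAR and -0.34 in TERM, 0.12 with that scale, and none of either set had an unadjusted p under 0.05. The smallest p of the class belonged to Gm22981 (1.87, 0.85 without HGC mouse 1) towards HGC and to Snord123 (-2.29, -0.03 without VGC mouse 5) and Rnu73b (-1.58, -0.19) towards VGC.

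Among 196 rRNA features 1 was called in LAR (0.51%), with 5 (2.55%) at an unadjusted p under 0.05. CT010467.1, a copy of rRNA at chr17:39846353-39848827 (GRCm38, minus strand) that overlaps exons of AY036118 and Gm42418, was at 12249.8, 7854, 6481 and 6685 rpmm in HGC and 4588, 14848, 6909 and 6692 rpmm in VGC. Although the arms overlapped and VGC mouse 5 had the highest value, the fitted log2 fold change was 0.55 (SE 0.10, edgeR adjusted p = 9.68e-06), and DESeq2, the replicate block and the fits without HGC mouse 1, HGC mouse 13, VGC mouse 5 or VGC mouse 13 did not call it. With the total of the 7 classes as scale its log2 fold change was 0.01. In TERM it gave -3.52 with 142582 rpmm in VGC mouse 8, the shallowest library, and was not called, as 0 of 185 were, with 14 (7.57%) at an unadjusted p under 0.05 and 0 by DESeq2. The 5S RNA Rn5s gave 0.0055 (SE 0.15) in LAR.

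The other classes gave no call in edgeR. Of 557 piRNA features 0 (0%) were called in LAR, with 37 (6.64%) at an unadjusted p under 0.05, and 0 of 783 in TERM with 63 (8.05%), while DESeq2 called 0 and 1 (oocyte_piRNA3720). piRNAs silence transposons in the germ line, and in brain such features are largely named from pieces that other RNAs can also give. The piRNA feature of smallest p towards HGC was oocyte_piRNA681 (1.08), and towards VGC it was oocyte_piRNA2529 (-1.60, -0.24 without VGC mouse 5).

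Of 2674 lncRNA features 0 (0%) were called in LAR, with 93 (3.48%) at an unadjusted p under 0.05, and DESeq2 called 1 (1700010I02Rik). In LAR the arms did not overlap in 109 lncRNAs that were lower in HGC (4.08%) and 6 that were higher (0.224%), while the median log2 fold change of all lncRNAs was -0.39. That lean turned on the setting. At an unadjusted p under 0.05 edgeR had 26 higher and 67 lower, but 98 and 42 without HGC mouse 5 and 100 and 77 without VGC mouse 5, DESeq2 had 91 and 36, and edgeR's own expression filter left 44 and 9. The median of all lncRNAs was -0.014 without HGC mouse 5, -0.19 without VGC mouse 5 and -0.12 by DESeq2. The smallest p belonged to Gm26871 (1.28) towards HGC and to Gm6117 (-1.40) and 5430440P10Rik (-1.59) towards VGC (edgeR, adjusted p = 0.881 for each), but without VGC mouse 1 Gm6117 gave -0.39 and 5430440P10Rik -0.40. Without VGC mouse 5 edgeR called 1 (Gm33336), and without HGC mouse 1 as well it called 50, of which 42 were higher. In TERM it called 0 of 3886 with 287 (7.39%) at an unadjusted p under 0.05, and DESeq2 called 0. The most abundant lncRNA, Mir124a-1hg, is a host gene of miR-124, and the reads of miR-124-3p made up 99.6% to 99.9% of its counts, so it is no separate measure.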

How the data were processed

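Small RNA was sequenced from brain of HGC and VGC mice, and the members, lists and tests were chosen with earlier results of these data known. Per the study's methods and the labels, the authors profiled the reads with miRMaster 2.0 against GRCm39. They deposited miRNA values as estimated counts, of which 0.964% in these libraries carry a fraction and which were rounded for edgeR, and whole counts for tRNA, rRNA, snRNA, snoRNA, piRNA and lncRNA. A read can be counted at every copy of a feature and in more than 1 class. In each file, 669 columns of other libraries were not used.

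Features with at least 5 counts in at least 10% of the libraries of an arm were tested with edgeR 4.0.16 (R 4.3.3, TMM factors, quasi-likelihood), adjusted by Benjamini-Hochberg over the class. DESeq2 1.42.0 was the alternative, and other settings were the scaling, the filter, a replicate block, identical copies kept once and each library left out. Shares were compared by exact permutation tests (scipy 1.17.1, Python 3.11.15, pandas 2.3.3). Steps were tested on simulated data, where miRNAs changed 2-fold went uncalled in LAR and in TERM. A count of 0 calls therefore does not show that no miRNA differed. Named miRNAs were the 10 of smallest p in each direction with a mean of at least 10 rpmm, the 10 most abundant and the listed members, and in other classes the called features, the 2 of smallest p in each direction and the 2 most abundant. Sequences matched for 119 of 140 named miRNAs. The sequence of the U6 RNA is not reported here. Sample pools and plates came from the study's supplementary sample list.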

Additional observations from a re-analysis of the deposited data

Results flagged for a closer look

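Values were looked at again where the highest or the lowest library of an arm lay so far from the rest that its gap to the nearest, divided by the whole range, passed the 95% critical value of Dixon's test. This held for 36 of 214 values of an arm. The nominal level of the test is 5%, which is no fair chance level here. Many of these values share libraries and are not independent, and many features were picked by their p in these same libraries. The test also assumes normal values, which was not checked for rpmm. VGC mouse 5 of LAR was the highest of its arm in 14 of them, which were tRNA share (40.7%, the others 3.06 to 5.03%), Hox-locus list (94.9 rpmm, the others 4.67 to 18.8 rpmm), vascular list (3021 rpmm, the others 577 to 819 rpmm), erythroid list (1487 rpmm, the others 190.0 to 217 rpmm), striated muscle list (4892 rpmm, the others 287 to 558 rpmm), liver list (27.9 rpmm, the others 2.00 to 4.39 rpmm) and miR-1a-3p (1111 rpmm, the others 12.5 to 26.3 rpmm). The further values of that library were miR-375-3p (420.0 rpmm, the others 5.65 to 33.6 rpmm), miR-199a-3p (278 rpmm, the others 10.7 to 26.9 rpmm), miR-199b-3p (278 rpmm, the others 10.7 to 26.9 rpmm), miR-143-3p (1983 rpmm, the others 250.3 to 412 rpmm), miR-133a-3p (2799.8 rpmm, the others 82.6 to 201 rpmm), Snord123 (164 rpmm, the others 16.2 to 25.2 rpmm) and oocyte_piRNA2529 (221 rpmm, the others 8.51 to 22.7 rpmm). HGC mouse 1 of LAR was the highest of its arm in 10, namely erythroid list (1022 rpmm, the others 119 to 209 rpmm), MIR-17 family list (294 rpmm, the others 97.7 to 127 rpmm), miR-381-3p (169.5 rpmm, the others 38.3 to 58.4 rpmm), miR-551b-3p (208 rpmm, the others 33.8 to 48.7 rpmm) and miR-99b-5p (409 rpmm, the others 130.3 to 175 rpmm). Its other values were miR-434-5p (82.9 rpmm, the others 13.0 to 24.6 rpmm), miR-127-3p (5559 rpmm, the others 2849 to 2991 rpmm), tRNA-Ile-AAT-3-1 (27.6 rpmm, the others 6.60 to 9.63 rpmm), Gm22981 (115 rpmm, the others 13.6 to 30.1 rpmm) and piR-120348 (44.7 rpmm, the others 7.20 to 10.8 rpmm). VGC mouse 1 of LAR was the highest in 5 values of the let-7 family, let-7 family list (64036 rpmm, the others 26559 to 29552 rpmm), let-7g-5p (6006 rpmm, the others 2112 to 2554 rpmm), let-7c-5p (19478 rpmm, the others 7340.1 to 8694 rpmm), let-7a-5p (11804 rpmm, the others 5628 to 5803 rpmm) and let-7b-5p (9628 rpmm, the others 3728 to 4139 rpmm). 

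The remaining values came from single libraries. In HGC of LAR, mouse 13 was low in the lncRNA share (7.42%, the others 13.6 to 14.6%), mouse 17 was high in the activity-dependent list (1137 rpmm, the others 159.5 to 251 rpmm) and mouse 5 was high in tRNA-Ala-CGC-2-1 (43.1 rpmm, the others 6.75 to 9.59 rpmm). In TERM, HGC mouse 7 was high in the Hox-locus list (119.9 rpmm, the others 7.19 to 36.0 rpmm), HGC mouse 18 in the liver list (1691 rpmm, the others 5.90 to 19.2 rpmm), VGC mouse 7 in the liver list (890.1 rpmm, the others 1.59 to 31.8 rpmm) and VGC mouse 8 in the rRNA share (15.3%, the others 3.48 to 5.02%).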

How the results depend on the processing

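Calls of miRNAs in LAR stayed at 0 in all 15 alternatives, including DESeq2 and each library left out, which does not by itself show stability. Fits without HGC mouse 1 and VGC mouse 5 together, without doubted TERM libraries and with identical copies kept once were chosen after seeing the data. Leaving out libraries, 1 at a time or these together, gave in LAR 0 to 15 calls for tRNA, 0 to 1 for rRNA, 0 to 45 for snRNA, 0 to 1 for snoRNA (1 without VGC mouse 13 or 17) and 0 to 50 for lncRNA. In TERM it gave 0 to 2 for miRNA, 0 to 78 for rRNA (78 without VGC mouse 7 and 2 without VGC mouse 9), 0 to 160 for snRNA (160 without HGC mouse 18 and VGC mice 7 and 8), 0 to 10 for snoRNA (10, 6 and 5 without VGC mouse 18, 7 and 9), 0 to 21 for piRNA (21 without VGC mouse 9 and 7 without VGC mouse 7) and 0 to 1 for lncRNA, while the fold rule passed 15 to 60 miRNAs in LAR and 7 to 38 in TERM. Against 28 snRNA calls and 1 rRNA call in LAR, scaling by the total of the 7 classes gave 0 and 0, edgeR's own expression filter 0 and 0, no filter 0 and 2, and identical copies kept once 1 and 0, and DESeq2 gave 0 for rRNA. DESeq2 also gave 1 call each for snoRNA and lncRNA in LAR and for piRNA in TERM, 10 for miRNA in TERM and 2 for the interaction. No filter gave 6 lncRNA calls in LAR and, in TERM, 20 for miRNA, 2 for rRNA, 11 for snoRNA, 30 for piRNA and 132 for lncRNA. In TERM edgeR's expression filter gave 1 miRNA call, and scaling by the total 1 rRNA and 2 snoRNA calls. With 10 or 0.1 rpmm added in place of 1, or with miRNA counts alone as the total, the fold rule passed 10, 58 or 63 miRNAs in LAR and 3, 22 or 27 in TERM. The cause of these changes was not tested.

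Mice of the arms share numbers in the labels but are different animals, and the deviations of same-numbered mice correlated at -0.354 to 0.417 in LAR and -0.282 to 0.192 in TERM, so the numbers did not pair them. With a replicate block edgeR called 1 snRNA and 0 rRNA in LAR, and 2 miRNAs and 9 piRNAs in TERM. For the shares of TERM the block drops HGC mouse 17, which has no VGC mouse of its number, and the differences of -0.71 percentage points for miRNA and -0.33 for lncRNA were those without that mouse.

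Differences in share of HGC less VGC, none of them significant, changed sign in some settings. In LAR that of miRNA was -1.14 percentage points without tRNA, and with libraries left out the differences were -1.04 to 1.64 for miRNA, -10.7 to 1.82 for tRNA and -1.90 to 13.2 for snoRNA (1.82 and -1.90 without VGC mouse 5), -0.242 to 0.203 for piRNA and -2.31 to 0.836 for lncRNA, and in TERM -0.712 to 2.15 for miRNA, -3.49 to 0.448 for rRNA, -0.103 to 0.0134 for piRNA and -0.327 to 2.55 for lncRNA. Single features that changed sign were Gm23806 (-0.095 with the total of the 7 classes), miR-133a-3p (-3.08 to 0.33 with libraries left out) and miR-181a-5p (-0.45 to 0.19). VGC mouse 8 of TERM, with 0.598 M miRNA counts, limits what can be said of rare miRNAs there.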
